A study of Mus musculus with 19 samples.

Results

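Ehd2, Enpp5, Stk19, Cngb1, Shisal1 and Arl15 are 6 mouse genes that carry a CpG site with higher methylation in the liver of SAMe-treated than of placebo-treated Mat1a knockout (KO) mice. They were chosen by name, with that difference known, from 84 coding genes that hold such a site. Every CpG site listed in the authors' deposited tables inside these genes, or within 2 kb of either end, was collected. This gave 13 positions out of 8525 listed positions, in 22 table rows, and 6 of 3285 coding genes with any listed site.

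The assay was reduced-representation bisulfite sequencing. Genomic DNA is cut with restriction enzymes (MspI and TaqαI in this study), and bisulfite treatment of the fragments tells methylated from unmethylated cytosine. The labels describe 19 livers of mice aged 10 months. They comprise 8 MAT1A WT animals with no treatment, 6 MAT1A KO animals given placebo and 5 MAT1A KO animals given SAMe supplementation, and the series title puts treatment at 8 weeks. The WT animals received neither placebo nor SAMe, so genotype and the treatment procedure cannot be told apart in either WT comparison. Strain, sex and the design of the KO allele are not given in the sources used here.

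S-adenosylmethionine (SAMe) is the methyl donor that DNA methyltransferases use to methylate cytosine, mostly in CpG pairs. Mat1a encodes the methionine adenosyltransferase that makes SAMe in the adult liver. Methylation near a gene's start is often tied to low expression, whereas CpG pairs inside transcribed genes are commonly methylated. No expression was measured in the data used here.

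The 3 deposited tables hold the authors' differences in percentage points with a p-value and a q-value for 3 comparisons. These are WT vs KO placebo with 6721 sites, WT vs KO SAMe with 5383 sites and KO placebo vs KO SAMe with 230 sites. Only sites past the authors' thresholds are listed, all with an absolute difference of at least 20. No methylation level, read depth or value per animal is in them, so no difference below carries an SD, and the liver label could not be checked against markers. Whole liver holds several cell types, and a shift in their shares cannot be told apart from a change inside the cells. Base calls per animal are also absent, so a base difference at a listed site cannot be told apart from a methylation difference. Differences are read as second group minus first, the usual order of the methylKit package. The tables do not state this order, and under the opposite one every direction given here turns round. At the 26 sites in all 3 tables the differences added up within 1e-08 percentage points, so a difference missing from 1 table follows by addition at sites listed in the other 2.

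Promoter sequences were in the RefSeq table (build GRCm38.p6, the coordinate system of mm10) for 3 of the 6 genes. They are shown because the listed sites of these genes lay outside them. Each runs 5′ to 3′ over the 250 bases before the annotated start, with the recognition sites CCGG (MspI) and TCGA (TaqαI) in capitals. Both words read the same on either strand and cannot overlap each other.
Ehd2, chr7:15967536-15967785, minus strand: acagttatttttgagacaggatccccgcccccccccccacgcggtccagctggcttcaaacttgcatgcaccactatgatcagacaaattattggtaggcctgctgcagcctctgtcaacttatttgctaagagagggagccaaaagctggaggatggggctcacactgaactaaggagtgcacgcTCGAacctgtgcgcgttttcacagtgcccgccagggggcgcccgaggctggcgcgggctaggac
Cngb1, chr8:95306586-95306835, minus strand: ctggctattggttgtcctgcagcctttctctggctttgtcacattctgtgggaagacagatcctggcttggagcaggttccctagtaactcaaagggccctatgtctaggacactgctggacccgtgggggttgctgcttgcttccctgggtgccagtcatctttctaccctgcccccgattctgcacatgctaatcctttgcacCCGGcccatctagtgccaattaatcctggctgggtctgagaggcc
Arl15, chr13:113794258-113794507, plus strand: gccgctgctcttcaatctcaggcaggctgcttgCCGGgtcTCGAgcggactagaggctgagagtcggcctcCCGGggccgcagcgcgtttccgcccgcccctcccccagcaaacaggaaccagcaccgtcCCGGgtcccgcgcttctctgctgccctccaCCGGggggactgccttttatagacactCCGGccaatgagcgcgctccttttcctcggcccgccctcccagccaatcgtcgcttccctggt

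The Arl15 window held 23 CpG pairs, with 5 CCGG and 1 TCGA. The Ehd2 window held 12 CpG pairs with 0 CCGG and 1 TCGA, and the Cngb1 window 3 with 1 CCGG and 0 TCGA. Over all 32851 promoter windows of the table the median was 6 CpG pairs, 47.1% held CCGG and 18.5% held TCGA. None of the 13 member positions fell in a promoter window, and 72 of all 8525 listed positions (0.845%) did. Enpp5, Stk19 and Shisal1 had no window, so their sites could not be set against their own promoters. With so low a share over all positions, nothing is read from this. The nearest listed site was 662 bp from the window for Arl15, 2.9 kb for Cngb1 and 10.1 kb for Ehd2. A window with no listed site may be unaffected or not covered. No sequence around the sites themselves was used here, and the gene table gives no exons, so exons, introns and untranslated regions were not told apart.

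Between the KO groups each gene had 1 listed site, and all 6 were higher with SAMe, which is how the genes were chosen. Over all coding genes 0.384% held a site higher with SAMe, and nothing is read from that share. The differences in the authors' deposited table were 31.4 percentage points for Shisal1, 31.2 for Cngb1, 28.7 for Ehd2, 26.8 for Arl15, 26.4 for Enpp5 and 23.3 for Stk19. Among the 161 sites higher with SAMe they stood 8th, 9th, 12th, 17th, 19th and 56th, against a median of 22.2 and a largest value of 45.7 in the authors' deposited table. The lowest member stood between 2 genes left out, Mip at 23.3 and P2rx5 at 23.2 in the authors' deposited table. Thus 5 of the 6 lie in the upper part of a narrow distribution and Stk19 lies closer to its middle.

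**Figure D1:**
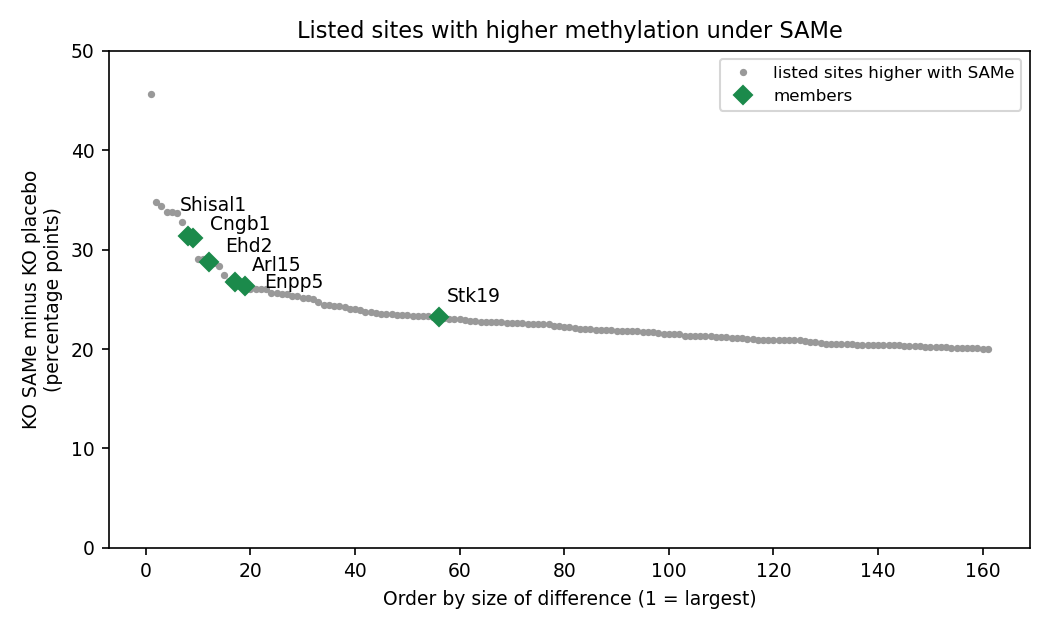
All 161 listed sites higher with SAMe, ordered by size on the x axis, with the KO SAMe minus KO placebo difference in percentage points on the y axis. The 6 members (diamonds) run from 31.4 for Shisal1 to 23.3 for Stk19, and most sites lie between 20 and 25.

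The members differed in how these sites stood to WT. Ehd2, Enpp5 and Stk19 had a WT difference at the same CpG site, so all 3 differences are known, and each gave a different pattern. Placebo-treated KO lay below WT for Ehd2 and far below for Enpp5, but near WT for Stk19. Cngb1, Shisal1 and Arl15 had no listed WT difference at their SAMe site, so its position relative to WT is unknown.

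Ehd2 encodes an ATPase that binds membranes and stabilises caveolae at the cell surface. Its site lay at chromosome 7 position 15957479 on the plus strand (mm10), near the middle of the gene (15946963 to 15967535) and 10056 bp inside its start. The difference was −22.9 percentage points for placebo-treated KO from WT (q = 1.89e-11) and 28.7 for SAMe-treated from placebo-treated KO (p = 6e-15, q = 2.72e-11) in the authors' deposited tables. By addition of the authors' deposited table values, SAMe-treated KO stood 5.88 above WT. The site is not in the WT vs KO SAMe table, whose listed sites all differ by at least 20. The placebo-treated group was thus the low group, and the WT and SAMe-treated groups lay close together in mean methylation. No other site of Ehd2 was listed, and the next listed site in any table was 194.7 kb away.

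Sites with a pattern like that of Ehd2 were found by distance in the plane of placebo minus WT and SAMe minus placebo. The nearest lay in Grin2a, an NMDA receptor subunit gene, at −21.3 and 25.1 in the authors' deposited tables, a distance of 3.96 percentage points. Adarb2, an RNA-editing enzyme homologue, stood at −23.7 and 24.3, and the vomeronasal receptor gene Vmn2r11 at −24.4 and 24.4, in the authors' deposited tables. At all 3 sites, as in Ehd2, methylation was lower in placebo-treated KO than in the other groups. This follows from how the sites were picked. The placebo animals enter both comparisons, so these differences are not independent of each other. Of the 161 sites higher with SAMe, 51 (31.7%) were, like that of Ehd2, listed in WT vs KO placebo and not in WT vs KO SAMe.

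Enpp5 encodes a membrane protein of the ectonucleotide pyrophosphatase and phosphodiesterase family. Its only listed site, chromosome 17 position 44085790 on the minus strand, lay inside the gene (44078802 to 44086567) and 777 bp from its upper end. The difference from WT was −72.1 percentage points in placebo-treated KO and −45.8 in SAMe-treated KO, both with q listed as 0 in the authors' deposited tables. SAMe-treated KO was 26.4 higher than placebo-treated KO (p = 2.56e-08, q = 1.58e-05) in the authors' deposited table. The SAMe difference thus equalled 36.5% of the placebo difference, and 63.5% of it was left. Both KO groups remained far below WT at this site. The next listed site was 260.8 kb away.

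The Enpp5 loss was the 14th largest of 6721 differences in WT vs KO placebo and the 290th of 5383 in WT vs KO SAMe, by the authors' deposited tables. Of 34 sites at least 60 lower in placebo-treated KO with 3 known differences, SAMe minus placebo ran from −11.0 to 45.7 with a median of 4.12 by the authors' deposited tables. Enpp5 was 5th from the top of these. Above it stood chromosome 14 positions 118103181 at 45.7, 118158023 (the Gpr180 site) at 33.8 and 105012926 at 29.1, and chromosome 1 position 13889386 at 29.0. Many of the 34 sites lay on chromosome 14, whereas Enpp5 lies on chromosome 17. The sites were not matched to Enpp5 by chromosome, and the part of chromosome in this order was not tested. The nearest patterns were less close than for Ehd2. Gpr180 stood at −68.5 against WT in placebo-treated KO and 33.8 with SAMe (distance 8.24), and the axon guidance gene Nav2 at −64.9 and 20.9, in the authors' deposited tables. Pcsk6, a proprotein convertase gene, stood at −66.5, with 14.7 by addition from the authors' deposited tables.

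Stk19 was named as a kinase gene and its protein takes part in transcription-coupled DNA repair. It lies in the class III region of the major histocompatibility complex, which also carries complement genes. Its site, chromosome 17 position 34823526 on the minus strand, was 467 bp below the lower end of Stk19 (34823993 to 34836903) and thus outside the gene. The same site lay 66 bp above the upper end, in coordinate, of C4a (34809092 to 34823460), annotated as a transcribed pseudogene. C4a is a close copy of the complement gene C4b, and reads from near-identical copies can be misplaced, so the assignment of this site is uncertain. Whether this entered its values was not tested.

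At the Stk19 site SAMe-treated KO was 25.4 percentage points higher than WT (q = 9.99e-07) and 23.3 higher than placebo-treated KO (p = 7.28e-06, q = 0.00103) in the authors' deposited tables. By addition, placebo-treated KO stood 2.12 above WT from the authors' deposited tables. The SAMe-treated group was therefore the high one, with the other groups close together. Among coding genes with a site whose 3 differences are known, the nearest to the Stk19 pattern, Phf2, was 22.1 percentage points away, followed by Yjefn3 at 22.7 and Pde1a at 23.0. All 3 were lower than WT in placebo-treated KO, from −20.7 for Pde1a to −20.02 for Phf2 in the authors' deposited table. A site at chromosome 9 position 89187219, in no coding gene and picked out after its values were seen, stood at 21.3 in SAMe-treated KO against WT and 23.7 with SAMe against placebo in the authors' deposited tables. Of the 161 sites higher with SAMe, 95 were in neither WT table and could not be compared in this way.

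**Figure D2:**
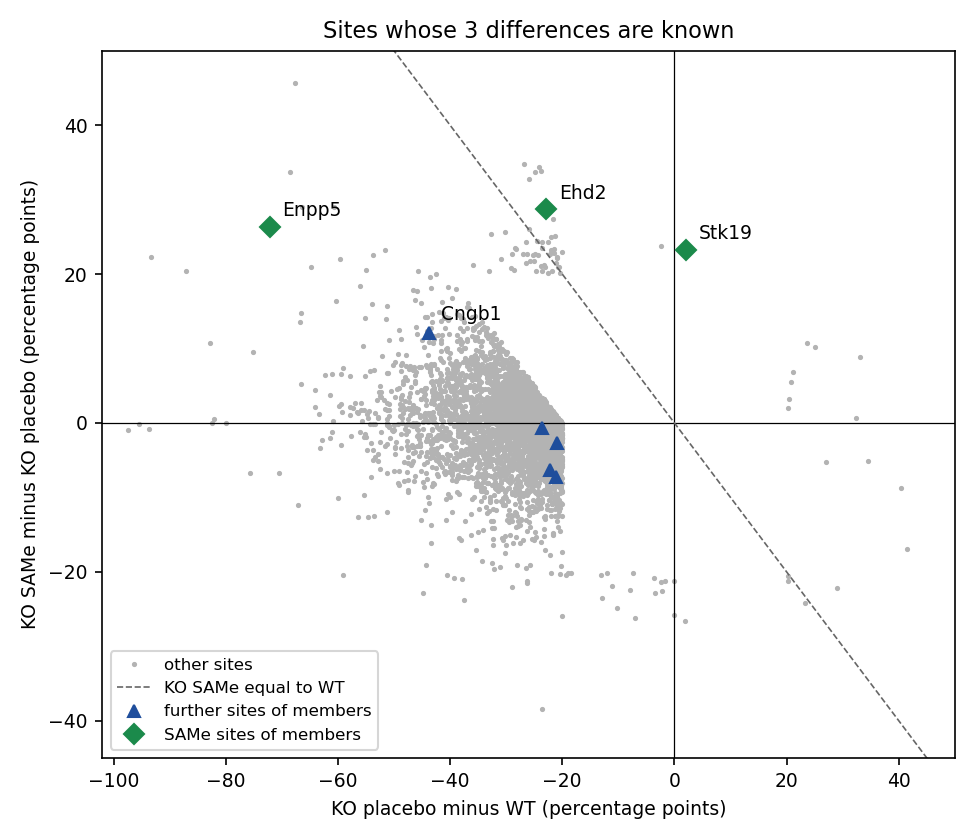
Each point is 1 of 3783 CpG sites whose 3 differences are known, with KO placebo minus WT on the x axis and KO SAMe minus KO placebo on the y axis, both in percentage points. Diamonds mark Enpp5 far left, Ehd2 just above the dashed line where KO SAMe equals WT, and Stk19 near 0 on the x axis. Triangles mark further sites of Cngb1, Shisal1 and Arl15, and the empty bands follow from the limit of 20 for listing.

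Cngb1, Shisal1 and Arl15 each carried sites that were lower in KO than in WT elsewhere in the same gene. Together they held 7 such further sites, all lower than WT wherever listed. In the 78 other coding genes with a site higher with SAMe, 93 of 95 further sites were lower than WT. Nothing is therefore read from this direction. At 5 of the 7 sites both WT comparisons were listed, and SAMe minus placebo by addition was above 0 at 1 and below 0 at 4. Over all 3681 sites listed in both WT tables and not between the KO groups it was above 0 at 45.7%, so nothing is read from this count. In each of these 3 genes 1 CpG site was listed as higher with SAMe.

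Cngb1 encodes a subunit of the cyclic nucleotide-gated channel of rod photoreceptors and olfactory neurons. Its SAMe site lay at chromosome 8 position 95243249 on the plus strand, inside the gene (95239043 to 95306585), 63336 bp from its start and 4206 bp from its far end. SAMe-treated KO was 31.2 percentage points higher than placebo-treated KO there (p = 1.45e-10, q = 2.66e-07) in the authors' deposited table. A second site, position 95303714 on the minus strand, lay 2871 bp inside the start and 60.5 kb from the first. There the difference from WT was −43.8 in placebo-treated KO and −31.7 in SAMe-treated KO, both with q listed as 0 in the authors' deposited tables. By addition, SAMe-treated KO stood 12.1 above placebo-treated KO from the authors' deposited tables, a difference that is not itself listed.

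The value of 12.1 at the start-side site of Cngb1 was high among sites listed in both WT comparisons and not between the KO groups. Over the same 3681 sites, SAMe minus placebo had a median of −0.46 by the authors' deposited tables. The 10th and 90th percentiles were −7.28 and 6.25, and 98.4% of the sites lay below Cngb1. Those sites were not matched to Cngb1 by the size of the placebo difference, which enters SAMe minus placebo. Its part in the 98.4% was not tested. In WT vs KO placebo 5.49% of sites had a larger absolute difference than this Cngb1 site. Sites most like it lay in Insr, the insulin receptor gene, at −44.2 in placebo-treated KO and −31.9 in SAMe-treated KO, and P4hb, a protein disulfide isomerase gene, at −43.4 and −30.6, in the authors' deposited tables. The third was Rnf144b, a ubiquitin ligase gene, at −42.9 and −31.7 in the authors' deposited tables.

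Shisal1 encodes a Shisa-like membrane protein. Its SAMe site lay at chromosome 15 position 84420406 on the minus strand, 39.7% of the way along the gene (84379203 to 84482860) from its lower end. SAMe-treated KO was 31.4 percentage points higher there than placebo-treated KO (p = 2.07e-06, q = 0.000414) in the authors' deposited table. The other 3 sites all lay above it in coordinate, the nearest 7.0 kb away. At position 84427375 the difference from WT was −20.9 in placebo-treated KO and −23.7 in SAMe-treated KO in the authors' deposited tables. At position 84467001 the differences were −21.1 (q = 0.00333) and −28.3 (q = 1.46e-05) in the authors' deposited tables. The last site, position 84471352, was listed for placebo-treated KO alone, at −27.1 in the authors' deposited table.

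SAMe minus placebo at the 84427375 and 84467001 sites of Shisal1 was −2.71 and −7.25 by addition from the authors' deposited tables. Of the 3681 sites, 32.2% were lower than the first value, which lies well inside their usual range, and 10.2% were lower than the second. The closest patterns to these further sites lay in Tbc1d31, Pigb and Sdr42e1 for the first and in E2f4, Xylb and Plppr2 for the second, each at a distance under 1 percentage point.

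Arl15 encodes a small GTPase related to the ARF family of membrane traffic regulators, and in human genetics its locus is known for a link to adiponectin levels. Its SAMe site lay at chromosome 13 position 113844753 on the plus strand, 50247 bp inside the lower end of the gene (113794506 to 114157462), where it starts. SAMe-treated KO was 26.8 percentage points higher than placebo-treated KO there (p = 4.84e-08, q = 2.63e-05) in the authors' deposited table. A site 910 bp before that end, position 113793596, was listed against WT for SAMe-treated KO alone, at −21.9 (q = 0.00646) in the authors' deposited table. Its difference in placebo-treated KO is unknown. Near the far end, positions 114122041 and 114122079 lay 38 bp apart and 277.3 kb from the SAMe site.

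At Arl15 position 114122041 the placebo and SAMe differences from WT were −23.6 and −24.3 in the authors' deposited tables. At position 114122079 they were −22.1 and −28.4 in the authors' deposited tables. SAMe minus placebo was −0.68 and −6.33 by addition from the authors' deposited tables, and 48.1% and 12.9% of the 3681 sites lay below these values. Both KO groups lay below WT at both sites. The closest patterns lay in Csk, Tbl1x and Ffar2 for the first site and in Adgra2, Fermt3 and Fgfr3 for the second, again each at under 1 percentage point. Both sites also share a short stretch of DNA and are not independent.

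**Figure D3:**
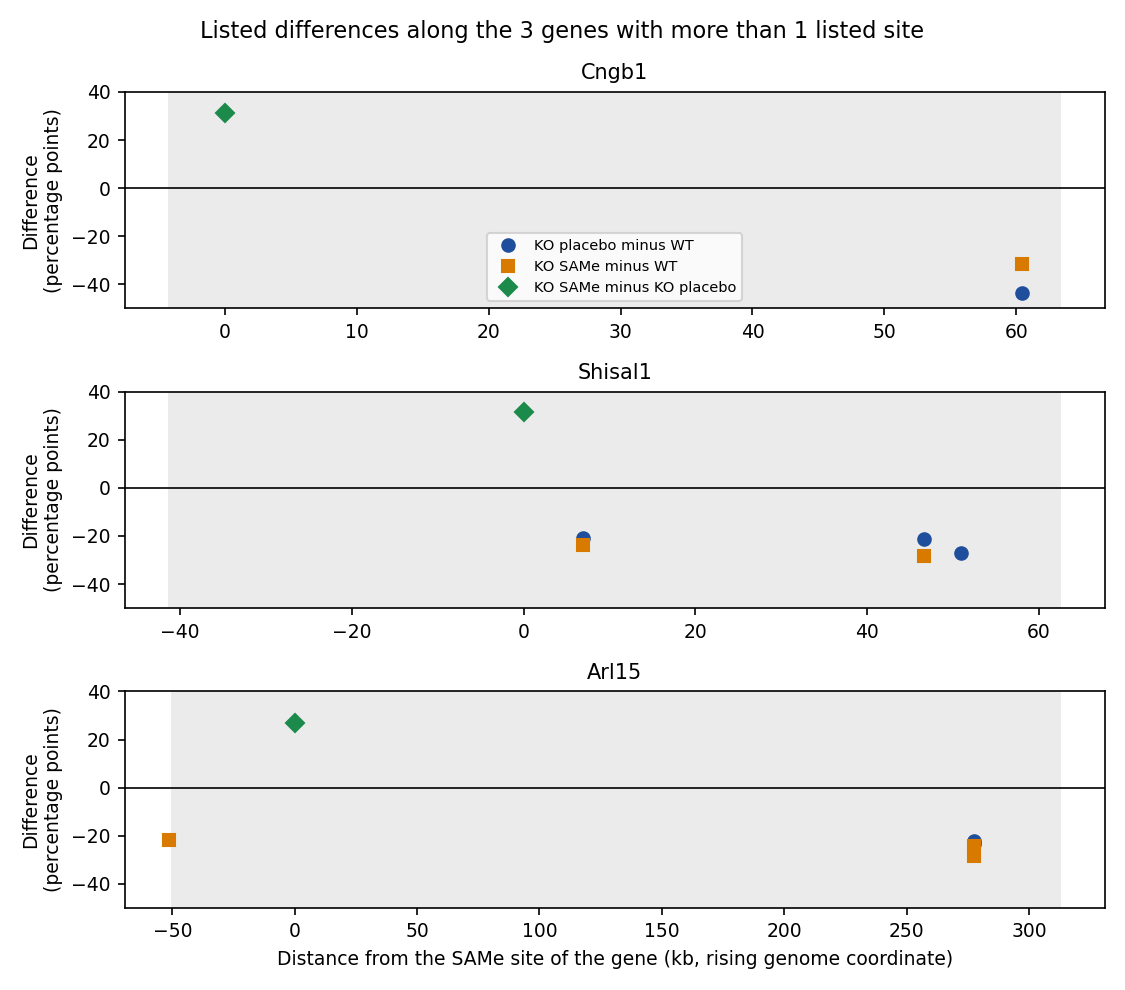
Listed differences (y axis, percentage points) along Cngb1, Shisal1 and Arl15 against distance from the SAMe site in kb (x axis), with the gene shaded. In each gene 1 diamond (KO SAMe minus KO placebo, 26.8 to 31.4) lies above 0 while every listed WT difference lies below −20.

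**Figure D4:**
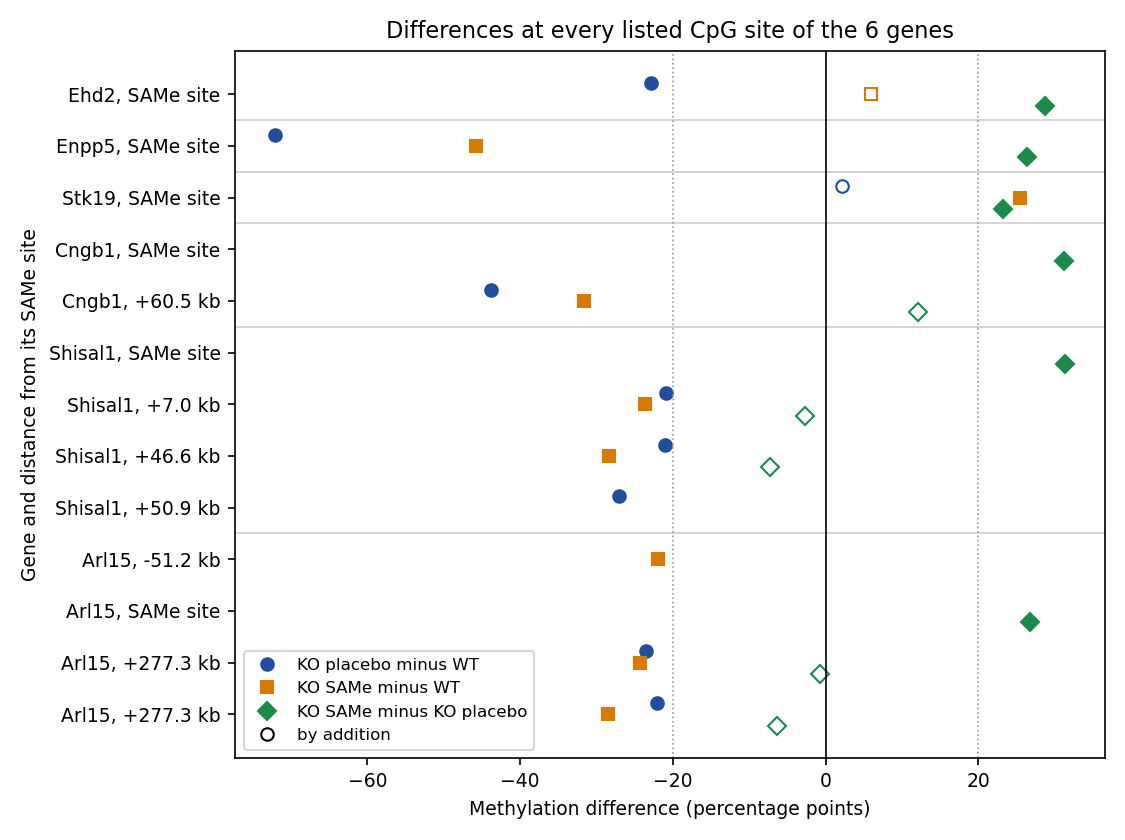
The known differences in percentage points (x axis) at the 13 positions (y axis, gene and distance from its SAMe site), 3 at 8 of the positions and 1 at the other 5, with filled marks for listed values and open marks for values by addition. The dotted lines at −20 and 20 mark the limit for listing, and the open marks all lie between them.

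Set beside all coding genes, 5 of the 6 members had a site lower in placebo-treated KO than in WT, against 12.5% of 21883 coding genes. A site lower in SAMe-treated KO than in WT was held by 4 of the 6, against 10.7%. Stk19 alone had a site higher in SAMe-treated KO than in WT, against 0.0914% of coding genes, and 0 members had one higher in placebo-treated KO, against 0.0777%. For Ehd2, Enpp5 and Stk19 the site counted is the same CpG site by which the gene was chosen. The shares over all coding genes also include genes that may not be covered. The animals behind these comparisons also entered the choice of the members, so the counts are a description. Gene length moves with them. A listed site in WT vs KO placebo was held by 27.4% of genes of 100 kb or more and by 6.35% of genes under 10 kb. Arl15 spans 363.0 kb and Shisal1 103.7 kb, and Cngb1 spans 67.5 kb, while Ehd2 (20.6 kb), Stk19 (12.9 kb) and Enpp5 (7.8 kb) are shorter. The part of length in the counts was not tested.

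The SAMe sites had no other listed site close by. The next listed site of any table lay between 7.0 kb (Shisal1) and 260.8 kb (Enpp5) away, with a median of 45.7 kb. The median was 51.7 kb over all 161 sites higher with SAMe and 0.755 kb over all listed positions. Another higher site within 1 kb was present at 21 of the 161 and at none of the 6 members. Further listed sites, absent from the KO placebo vs KO SAMe table, were held by 3 of the 6 members and by 35 of the 78 other coding genes with a higher site (44.9%). In those other genes SAMe minus placebo by addition was above 0 at 21 of 35 further sites and below 0 at 14, from the authors' deposited tables. Coding genes with a site lower with SAMe held further sites in 47 of 60 cases (78.3%). There the value was above 0 at 5 of 19 sites and below 0 at 14. None of these shares was tested against the members.

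The gene families and neighbours of the members were also set beside all coding genes. The lists held 62 other coding genes, among them relatives of Ehd2, Enpp5, Cngb1, Shisal1 and Arl15, partners of Ehd2 in caveolae, and genes beside Stk19. Of these, 11 (17.7%) had a site lower in placebo-treated KO than in WT and 7 (11.3%) one lower in SAMe-treated KO, against 12.5% and 10.7% of coding genes. Of the 11, 5 were among the 10 genes beside Stk19, and 2 of those, C2 and Cfb, were counted for the same CpG site. The pooled share is therefore not read as a trait of the families. A site higher than WT was held by 0 of the 62 in either KO group. Over all coding genes the shares were 0.0777% for placebo-treated and 0.0914% for SAMe-treated KO, so nothing is read from this. Between the KO groups 1 of the 62 (1.61%) had a higher site with SAMe, against 0.384%, and 0 a lower one, against 0.274%.

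That 1 gene was Zbtb12, a zinc finger gene of the same chromosome 17 region as Stk19. Its site at position 34895599 was 23.5 percentage points higher with SAMe (q = 0.0289) in the authors' deposited table and lay 72.1 kb from the Stk19 site. Between them lies Nelfe, a subunit gene of the negative elongation factor that pauses RNA polymerase II. Nelfe held a run of 8 lower sites in placebo-treated KO, from −46.2 to −29.4, and 6 in SAMe-treated KO, from −33.3 to −26.4, in the authors' deposited tables. The matrix gene Tnxb stood at −28.4 in placebo-treated KO and C4b at −25.4 in SAMe-treated KO, in the authors' deposited tables. Sites higher with SAMe and sites lower in KO thus both occurred in this region, and the listed site nearest to the Stk19 site lay 30.4 kb away. As 12.5% of all coding genes held a site lower in placebo-treated KO, nothing is read from this.

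Among the relatives of Ehd2, Ehd1, which works in endosomal recycling, had 1 site at −41.7 in placebo-treated and −44.8 in SAMe-treated KO in the authors' deposited tables. All 9 caveola genes, including Cav1 and Cavin1, were without a listed site. Among 6 other Enpp genes, Enpp6, a choline-specific phosphodiesterase gene, had 1 site at −22.5 in placebo-treated KO in the authors' deposited table. The 5 other cyclic nucleotide-gated channel genes held no listed site. Of 10 other Shisa genes, Shisa8 was lower, at −33.0 and −44.8 by its lowest site in placebo-treated and SAMe-treated KO in the authors' deposited tables. Of 19 other Arl genes 3 were lower in each WT comparison, close to the 12.5% and 10.7% of all coding genes. Arl3, a ciliary traffic GTPase gene, stood at −39.4 and Arl5c at −33.6 in placebo-treated KO, and at −26.1 and −32.0 in SAMe-treated KO, by their lowest sites in the authors' deposited tables. With lists this short and shares this low over all coding genes, nothing is read from the families without a site, nor from the absence of a site higher with SAMe among the relatives. A gene without a listed site may be unaffected or not covered.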

How the data were processed

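CpG methylation was measured by reduced-representation bisulfite sequencing in 19 mouse livers. Per the submitters' processing notes, CASAVA 1.8.2, Trim Galore, Bismark and methylKit were used with the mm10 build, and no order or settings are given. The authors deposited 3 tables of their own comparisons, with a p-value, a q-value and a difference in percentage points per CpG site. The test behind the p-values is not given in the sources used here, nor whether spread between animals entered it. Depth per sample is unknown.

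Sites were assigned to 21883 coding genes of the RefSeq table (GRCm38.p6) in which they lay or within 2 kb of either end, with pandas 2.3.3. The assignment was tested on simulated data. No test was run, because the tables hold no value per animal. Strand and start were taken from the RefSeq promoter table where it held the gene. Animals were grouped by the treatment label, and no animals were paired.

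The members and the 7 gene lists were chosen with earlier results of these data known. Named were every listed site of the members, family genes with a listed site between the KO groups or the 2 largest differences per WT table, and the 3 coding genes nearest in pattern to each member site. Alternatives were a q-value limit of 0.01, a difference of at least 25 percentage points, sites inside genes only and within 10 kb.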

Additional observations from a re-analysis of the deposited data

How the results depend on the processing

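A q-value of at most 0.01 left all 6 members with a site higher with SAMe, and so did assignment within 10 kb. A difference of at least 25 percentage points left 5 members, as did sites inside genes only, and Stk19 was lost in both. At 25 percentage points the 22 member rows became 13, coding genes with a listed site fell to 17 (from 144) in KO placebo vs KO SAMe, 1561 (from 2362) in WT vs KO SAMe and 1715 (from 2744) in WT vs KO placebo, and 4 of the 26 sites in all 3 tables remained. Family genes listed between the KO groups numbered 1, and 0 at 25 percentage points, 0 at a q-value of 0.01 and 2 within 10 kb, and those in WT vs KO SAMe numbered 11 within 10 kb instead of 7. Stricter limits list fewer sites by construction. No paired analysis was possible because the tables hold no value per animal, and for the same reason no animal could be left out. The direction of every difference rests on the assumed order of subtraction.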
